A study of Mus musculus with 2 samples.

Results

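Most of the genome loses DNA methylation when Dnmt1 is impaired, and the regions described here are the exceptions outside the Hox clusters. They are 217 stretches of 1 kb (tiles) that were chosen by their own difference between the libraries: an autosomal tile was kept when it held 5 or more measured CpGs and its mean methylation was at least 15 percentage points higher in Dnmt1-/- than in Dnmt1+/+ mouse embryonic fibroblasts (MEFs). Of 100163 autosomal tiles with enough CpGs, 284 met that threshold (0.284%). The 67 of them in 4 intervals around the HoxA, HoxB, HoxC and HoxD clusters were dropped, which left 217 tiles with 4761 CpGs. Since this contrast selected the tiles, the size of their rise is a description and carries no test.

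Methylation was measured by reduced-representation bisulfite sequencing, which cuts DNA with restriction enzymes, keeps short fragments and reads a cytosine that resists bisulfite as methylated. There was 1 library of Dnmt1+/+ MEFs and 1 of Dnmt1-/- MEFs, the latter homozygous for a hypomorphic Dnmt1 allele, and both lines also lacked trp53. The lines had been established elsewhere, and the libraries had no replicates, so every difference is one between these libraries, with counting error only. Genotype and any other difference between the lines cannot be told apart, and methylation calls gave no RNA markers with which to check the cell type. Every CpG had at least 10 calls in each library, and the table held 1790826 CpGs with a median depth of 29 calls in Dnmt1+/+ and 30 in Dnmt1-/-. Over the autosomes, mean methylation was 61.8% and 33.8%, and 75.04% of the tiles fell by 15 points or more.

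DNMT1 copies CpG methylation onto the new DNA strand after replication, whereas DNMT3A and DNMT3B set methylation on unmethylated DNA. CpG-rich promoters are mostly free of methylation in somatic cells. In fibroblasts, many CpG-rich genes of developmental regulators are instead covered by Polycomb proteins and their histone mark H3K27me3, the most studied of them being the Hox genes.

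The sequences of several tiles are shown first, in windows chosen where measured CpGs are densest, so their density follows from that choice. Each window has 200 bases of the NCBIM37 (mm9) plus strand, is the part of its tile with the most measured CpGs outside annotated UTRs, and is written 5′ to 3′. Capitals mark the CG of each measured CpG that was higher in Dnmt1-/- by 15 points or more. The first lies about 5 kb downstream of the start of Foxc1, which encodes a forkhead transcription factor of eye, heart and skeletal development (chr13:31903036-31903235). The second is in an intron of Foxf2, another forkhead gene (chr13:31721132-31721331). The third is intergenic, 55.3 kb upstream of Psmd14 (chr2:61494612-61494811), the fourth is upstream of Alx1, a homeobox gene of the facial mesenchyme (chr10:102492753-102492952), and the fifth is upstream of Nr2f2, which encodes the nuclear receptor COUP-TFII (chr7:77514577-77514776). The last, given for contrast, is the 200 bases just upstream of the Foxc1 start (chr13:31898315-31898514).
Foxc1, downstream tile: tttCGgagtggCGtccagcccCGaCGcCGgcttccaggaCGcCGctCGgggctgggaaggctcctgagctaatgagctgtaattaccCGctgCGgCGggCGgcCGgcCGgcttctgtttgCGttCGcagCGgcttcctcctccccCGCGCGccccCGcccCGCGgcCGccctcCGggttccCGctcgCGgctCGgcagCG
Foxf2, intron: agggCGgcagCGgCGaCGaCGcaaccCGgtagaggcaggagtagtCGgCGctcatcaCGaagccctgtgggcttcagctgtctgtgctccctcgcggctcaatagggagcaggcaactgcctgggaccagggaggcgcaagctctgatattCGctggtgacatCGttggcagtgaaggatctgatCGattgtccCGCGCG
Psmd14, intergenic: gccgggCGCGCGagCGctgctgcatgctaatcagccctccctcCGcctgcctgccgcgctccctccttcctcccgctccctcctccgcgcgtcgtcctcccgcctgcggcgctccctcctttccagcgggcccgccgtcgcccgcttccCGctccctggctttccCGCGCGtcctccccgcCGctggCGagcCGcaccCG
Alx1, upstream: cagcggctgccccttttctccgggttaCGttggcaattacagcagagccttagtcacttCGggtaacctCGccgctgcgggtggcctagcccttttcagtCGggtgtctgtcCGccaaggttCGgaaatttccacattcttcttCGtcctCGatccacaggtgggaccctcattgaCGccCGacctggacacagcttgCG
Nr2f2, upstream: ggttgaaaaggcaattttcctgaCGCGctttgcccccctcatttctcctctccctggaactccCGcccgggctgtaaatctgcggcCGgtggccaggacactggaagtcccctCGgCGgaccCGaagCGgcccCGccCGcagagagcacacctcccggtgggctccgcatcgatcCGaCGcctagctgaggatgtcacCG
Foxc1, before the start: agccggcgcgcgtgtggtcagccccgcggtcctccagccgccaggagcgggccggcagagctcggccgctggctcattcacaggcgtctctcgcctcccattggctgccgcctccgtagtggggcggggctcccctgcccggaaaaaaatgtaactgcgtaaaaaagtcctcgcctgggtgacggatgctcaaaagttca

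In the Foxc1 downstream window, 29 of 30 measured CpGs were higher by 15 points or more, and in the Foxf2 window all 15 were. The Psmd14 window had 13 of 15, the Alx1 window 11 of 12 and the Nr2f2 window 13 of 16. Among windows not shown, Tacc2 had 1 of 4, Lrrc4 19 of 20, and Mn1 11 of 13 and 13 of 15. In the window before the Foxc1 start, 0 of 12 measured CpGs were. That window was CpG-rich as well, with 20 CG against 30 in the downstream window, and its CpGs outside CCGG and TCGA averaged 0.597% in the Dnmt1+/+ library and 0.600% in the other.

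Across the 217 tiles, tile means in Dnmt1+/+ lay between 5.74% and 58.8% (median 25.9%), and those in Dnmt1-/- between 28.5% and 85.7% (median 52.6%). The difference ran from 15.01 to 52.5 points with a median of 21.7. It was 25 points or more in 85 tiles and 40 or more in 9, whereas 95 tiles lay between 15 and 20. Tiles just inside the threshold lay near Nr2f2 (15.07 points) and Pfkfb3 (15.10), and the 3 just outside near Dyrk1b (14.97), Dmrta2 (14.89) and Msx1 (14.85). A further 135 autosomal tiles outside the Hox intervals were higher by 10 to 15 points.

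**Figure D1:**
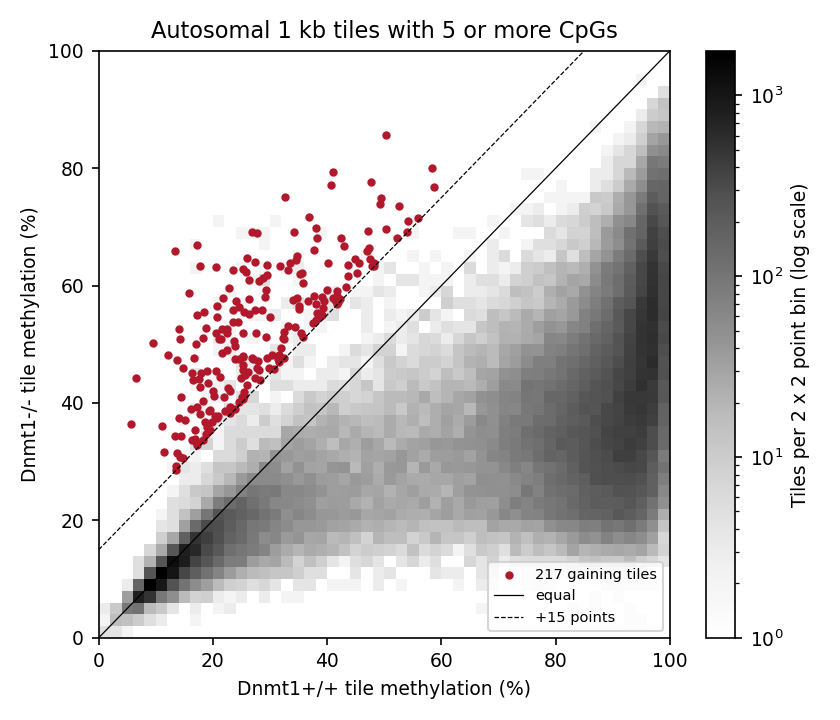
Mean methylation of autosomal 1 kb tiles with 5 or more CpGs, in percent, in Dnmt1+/+ (x axis) and Dnmt1-/- (y axis); grey shading counts all tiles per bin on a log scale, Hox tiles included, and red points are the 217 gaining tiles. The red points start at the +15 point line by construction and stay at or below 58.8% in Dnmt1+/+, whereas most tiles lie far below the line of equality.

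CpGs inside CCGG or TCGA, the recognition sequences of MspI and TaqI, read higher than their neighbours in both libraries. Within the gaining tiles the 1038 CpGs of this kind averaged 57.7% in Dnmt1+/+ and 67.3% in Dnmt1-/-, whereas the other 3723 CpGs averaged 18.2% and 47.3%. The cause of the gap was not tested. CpGs in CCGG or TCGA were 21.8% of the CpGs in gaining tiles and 44.3% of those over the autosomes. Means over all CpGs thus mix both kinds in unlike shares. Starting levels are therefore also given by the CpGs outside these sequences, called other CpGs from here on. By them the median tile went from 15.7% in Dnmt1+/+ to 47.6% in Dnmt1-/-. All 191 gaining tiles with 5 or more other CpGs were higher by at least 15 points in these CpGs alone, and 104 by at least 25. The remaining 26 tiles had 1 to 4 other CpGs, and all 26 were higher. The other CpGs are most of the CpGs on which the tiles were chosen, so these counts follow largely from the rule.

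The gaining tiles came from a middle range of starting levels. This was read in tiles with 5 or more other CpGs, with the Hox intervals left out of both the gaining and the eligible tiles. Of tiles below 5% in Dnmt1+/+ by other CpGs, 18 of 14057 gained (0.128%). The share was 1.06% (34 of 3200) between 5 and 10%, 2.63% (69 of 2627) between 10 and 20% and 2.82% (57 of 2020) between 20 and 40%. It was 0.948% (13 of 1371) between 40 and 60%, and none of 20948 tiles at 60% or more gained. With the Hox intervals counted in, the shares from 10 to 20% and from 20 to 40% were 3.31% and 3.19%, so the order of these neighbouring ranges turned. High tiles have little room to be higher by 15 points, so their share is partly set by the threshold. Among all these eligible tiles between 10 and 20%, the median was 3.51% in Dnmt1-/-, so tiles of this starting level were mostly lower.

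CpG by CpG, 2444 of the 4761 CpGs (51.3%) were called higher in Dnmt1-/- and 34 were called lower, by Fisher's exact test on the calls of the libraries with Benjamini-Hochberg adjustment over all CpGs at a threshold of 0.05. This count rests on depth: with every CpG thinned to 10 calls, 293 were called higher. The share of CpGs called higher over the whole series was 0.462%. The tiles were chosen on the same difference, so nothing is read from the comparison of these shares. Of the other CpGs, 2263 of 3723 (60.8%) were called higher, against 181 of 1038 (17.4%) in CCGG or TCGA. The tiles held 29.5% of all 8273 CpGs called higher, and the Hox tiles that met the threshold held 7.12%. In 102 tiles at least 50% of CpGs were called, in 40 tiles every CpG was higher, and in 5 tiles no single CpG was called.

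The higher level was intermediate rather than complete. Among other CpGs, 65.4% were at 20% or less in Dnmt1+/+ and 14.1% in Dnmt1-/-. The share between 20 and 80% went from 33.6% to 77.3%, and the share at 80% or more from 1.02% to 8.57%. Only 10 of the 3723 were at 100% in Dnmt1-/-.

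The largest difference among tiles with 20 or more CpGs was the Foxc1 downstream tile, intergenic between 4.5 and 5.5 kb from the start (chr13:31903001-31904000). Its 76 CpGs averaged 13.4% in Dnmt1+/+ and 65.9% in Dnmt1-/-. Its 64 other CpGs had a median of 4.35% in Dnmt1+/+ (range 0 to 21.4%) and 65.2% in Dnmt1-/- (10.5 to 90.0%). The ranges of the libraries met only at the lowest Dnmt1-/- CpGs. Pooled over calls, these CpGs were at 4.72% in Dnmt1+/+ (95% Wilson interval 3.94 to 5.64%, 2395 calls) and at 63.5% in Dnmt1-/- (61.1 to 65.7%, 1721 calls). Of the 76 CpGs, 63 were called higher.

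The Foxf2 tile, in an intron 3.8 kb from the start, went from 32.6% to 75.01% over 44 CpGs. Both tiles of Mn1, a transcriptional coregulator gene, were exonic, and went from 25.9% to 64.7% (35 CpGs) and from 25.3% to 62.9% (49 CpGs). The Nr2f2 tile, 2.9 kb upstream of the start, was the highest of the 10 in Dnmt1-/-, at 77.1% against 40.7%.

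The tile upstream of Lrrc4, which encodes a synaptic adhesion protein and lies inside Snd1, went from 6.62% to 44.3% over 20 CpGs. The start of Lrrc4 went the opposite way, from 92.7% down to 61.3%, by the 9 other CpGs within 500 bp of it. The Psmd14 tile went from 14.1% to 52.6%, and the Alx1 promoter tile from 18.4% to 55.4%. The promoter tile of Creld1, which also overlaps Il17rc, went from 14.3% to 50.9%. The tile at the start of a Tacc2 transcript, which also overlaps Fgfr2, a fibroblast growth factor receptor gene, went from 20.7% to 56.5%. Among the 10 tiles no CpG was called lower.

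**Figure D2:**
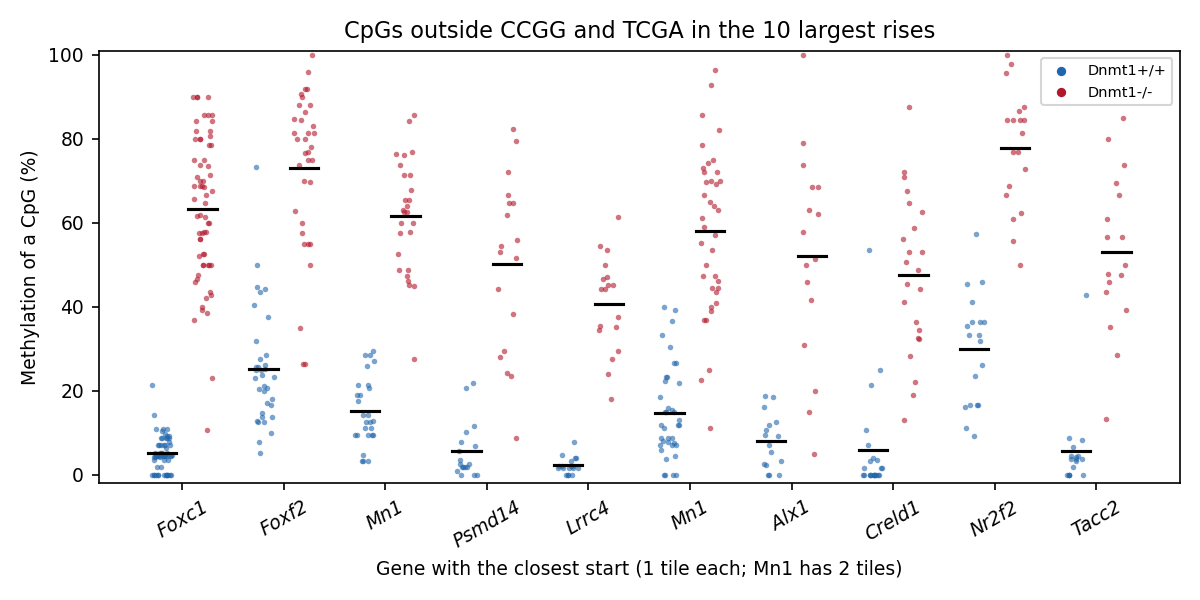
Methylation of each CpG outside CCGG and TCGA (y axis, percent) in the 10 tiles with 20 or more CpGs and the largest rise, ordered by rise from left to right and named by the gene with the closest start. Blue points are Dnmt1+/+, red points are Dnmt1-/- and black bars are means; in the Foxc1 tile the means are 5.10% and 63.4%.

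The tiles formed 165 loci when those within 10 kb were joined. Of these, 127 had 1 tile, 28 had 2 and 10 had 3 or more. The largest had 5 tiles. All autosomes had at least 4 tiles, and the share of eligible tiles ran from 0.0705% on chromosome 4 (5 of 7088) to 0.411% on chromosome 13 (17 of 4133).

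The Evx1 locus (chr6:52262001-52271000) had 5 gaining tiles of 7 eligible in its span. Evx1 encodes an even-skipped homeodomain protein, and the gene is the neighbour of the HoxA cluster, outside the dropped interval. Its 5 tiles were at 18.3% to 47.9% in the Dnmt1+/+ library and at 39.0% to 63.4% in the Dnmt1-/- library. The largest difference was 39.3 points, in an intergenic tile 7.0 kb past the start, and an exonic tile went from 18.3% to 51.1% with 21 of 28 CpGs called higher.

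The locus around A930004D18Rik (chr2:17947001-17964000) also had 5 tiles, of 10 eligible, with differences of 15.1 to 36.1 points. The 3 Foxc1 tiles spread over 9 kb on both sides of the start, and went up by 18.1, 36.0 and 52.5 points. The Foxc1 start itself stayed low: within 500 bp of it, 39 other CpGs had a mean of 0.851% in Dnmt1+/+ against 0.834% in Dnmt1-/-.

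**Figure D3:**
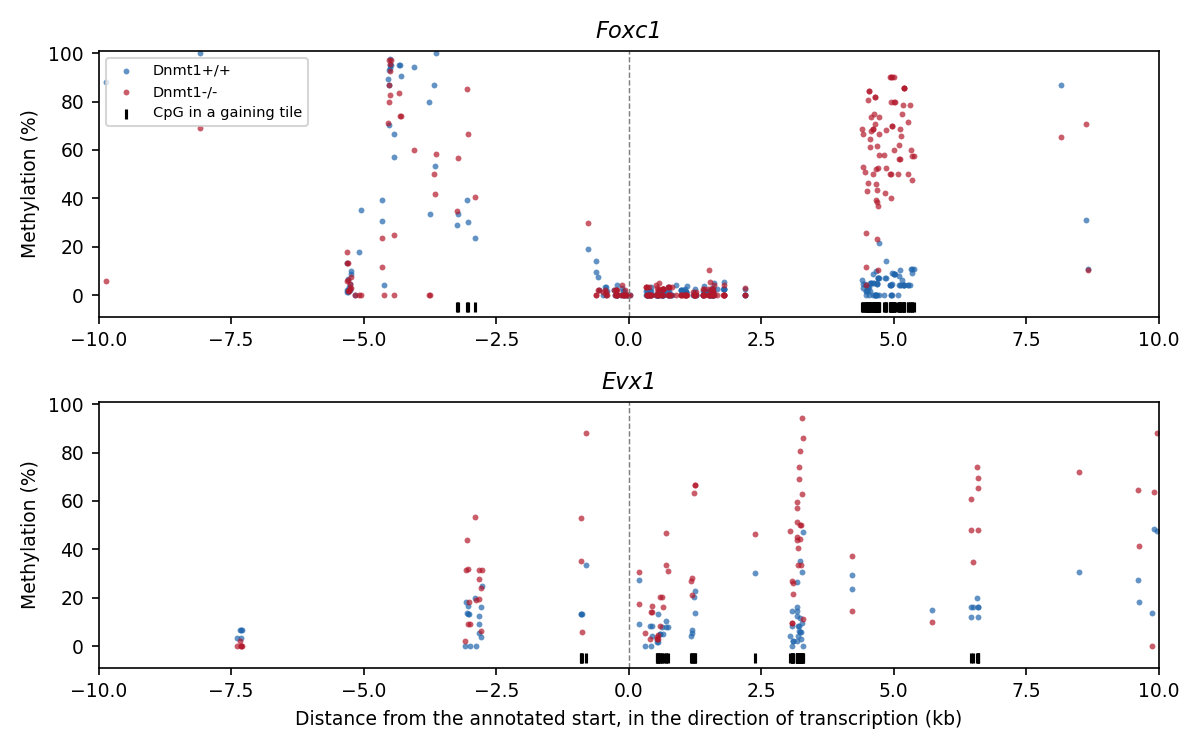
Methylation of CpGs outside CCGG and TCGA (y axis, percent) in Dnmt1+/+ (blue) and Dnmt1-/- (red) against distance from the annotated start (x axis, kb, in the direction of transcription) at Foxc1 and Evx1; black ticks mark CpGs in gaining tiles. At Foxc1 both libraries are low around the start and separate near 5 kb, and at Evx1 the red points lie above the blue in several stretches on both sides of the start.

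At Zfp503, a zinc finger gene, 3 adjacent tiles past the gene went from 20.5%, 44.96% and 22.6% to 63.1%, 64.5% and 42.6%. At Twist1, which encodes a mesenchymal bHLH factor, 3 intergenic tiles 4.96 to 9.96 kb past the start differed by 19.97 to 42.2 points, and 1 of them reached 85.7%, the highest Dnmt1-/- tile mean of all 217. At Nrn1, a secreted neuronal growth protein gene, 3 tiles differed by 29.9 to 40.8 points, and the intronic one was lowest in Dnmt1+/+, at 9.46%. The 3 tiles at Nfix, which encodes a nuclear factor I protein, were intronic and differed by 15.7 to 33.5 points.

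Each tile was given to the protein-coding gene with the closest annotated start, which does not mean that it regulates that gene. The 217 tiles pointed to 161 genes, 0.885% of the 18190 genes with an eligible tile. Gene lists by protein family were set beside that share. Both the lists and the tiles were chosen with results of these data known, so the shares are descriptions. Genes of any list had 71 of the 217 tiles (32.7%), from 47 of 615 listed genes (7.64%). Listed genes also had more tiles each (6959 tiles for 615 genes, against 100163 for 18190), and their median tile was lower in Dnmt1+/+ (79.5% against 87.4%). Of tiles below 60% in Dnmt1+/+, 2.60% gained near listed genes and 0.786% near all genes, where the tiles of the Hox intervals are in the number of tiles but not among those that gained.

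Homeobox genes outside the Hox clusters, which encode DNA-binding regulators of body pattern, had 30 tiles at 18 of 135 genes (13.3%). Large differences were found at Evx1 (39.3 points), Alx1 (37.0) and Hlx (34.9). Evx1, the neighbour of the HoxA cluster, gave 5 of the 30 tiles. The smallest was 15.2 points, at Phox2a, named here after its values were seen. The median tile near homeobox genes was nevertheless 17.9 points lower in Dnmt1-/-, so gaining was not the usual state of the family.

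T-box genes, regulators of limb and heart, had 8 tiles at 4 of 15 genes (26.7%). At Tbx2 an exonic tile went from 20.7% to 54.6% with 30 of 46 CpGs called higher, and its neighbour from 38.5% to 54.7%. The promoter tile of Tbx4, on the same chromosome, went from 27.5% to 51.9%. The tiles of Tbx20 and Tbx3 were intergenic and upstream, and were at most 18.4 and 15.4 points higher.

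Forkhead genes had 6 tiles at 3 of 40 genes (7.50%), Foxc1, Foxf2 and Foxp2. The Foxp2 promoter tile, 0.8 kb before the start, went from 20.5% to 45.4%. Developmental zinc finger and nuclear receptor genes had 14 tiles at 11 of 90 genes (12.2%), with the largest differences at Osr1 (41.2 points), Nr2f2 (36.4), Esr1 (33.1) and Trps1 (31.7). Osr1 encodes a zinc finger factor of kidney and heart, Esr1 the oestrogen receptor alpha, and Trps1 a GATA-type repressor of cartilage and hair. The Esr1 tile went from 17.0% to 50.1%, with 17 of 29 CpGs called higher.

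Basic helix-loop-helix genes had tiles at 3 of 70 genes (4.29%): Twist1, Ebf1 (25.8 points) and the heart gene Hand1 (22.1). The Pax list had Pax9 alone (1 of 9, 16.1 points), and the Sox list Sox4 alone (1 of 17), with its tile 65.5 kb past the start.

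Among signalling ligands 4 of 99 genes (4.04%) had a tile, each of them a promoter tile. They were the Wnt inhibitor genes Dkk3 (24.3 points) and Dkk1 (15.6), the Nodal inhibitor gene Lefty1 (23.6) and Wnt5a (19.3), which encodes a Wnt ligand. Receptor and guidance genes had 2 of 93, Sema4b (22.1 points) and Notch3 (18.3), the latter 53.3 kb away. None of 47 collagen and fibroblast marker genes had a gaining tile, and only 69 of their 377 tiles were below 60% in Dnmt1+/+. Of tiles below 60%, 0.694% gained near receptor and guidance genes, against 0.786% near all genes. The share was 1.01% for Pax, 1.22% for Sox, 1.34% for signalling ligand and 1.85% for basic helix-loop-helix genes. It was 3.09% for zinc finger and nuclear receptor, 3.21% for forkhead, 3.37% for homeobox and 8.99% for T-box genes.

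**Figure D4:**
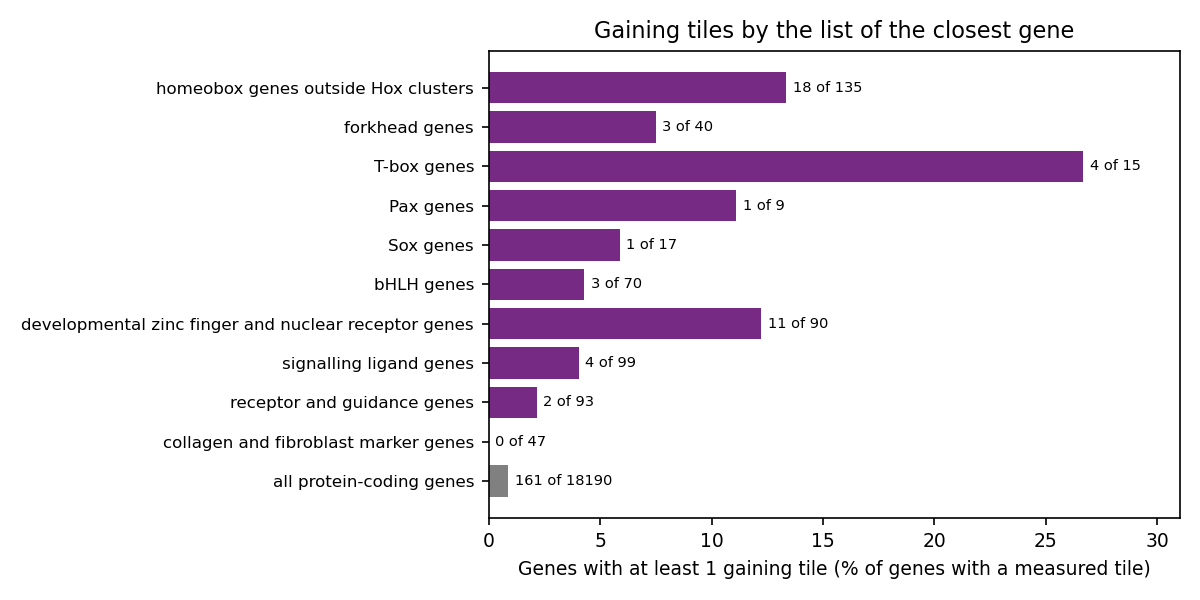
Percent of genes with at least 1 gaining tile among genes with a measured tile (x axis), for each gene list and, in grey, all protein-coding genes; counts stand beside the bars. The T-box (26.7%), homeobox (13.3%) and zinc finger and nuclear receptor (12.2%) lists are the longest bars, and all genes are at 0.885%.

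The gene for the de novo methyltransferase Dnmt3a, named here after its values were seen, had a promoter tile among the 217. It went from 23.5% to 55.9% over 10 CpGs, of which 6 were called higher.

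Besides the Evx1 tiles, a few others lay near the dropped Hox intervals. The tile 13.6 kb upstream of Hoxa13 went from 41.1% to 79.4%, and those 6.7 and 26.7 kb past the closest Hoxc4 start from 34.5% to 64.3% and from 27.4% to 44.3%; these were also named after their values were seen. Without all tiles within 100 kb of an interval, 209 tiles remained. Within the intervals 67 of 211 eligible tiles (31.8%) met the threshold, with a median difference of 28.9 points against 21.7 in the 217.

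By position, 88 of the 217 tiles (40.6%) overlapped a promoter (within 1 kb of a protein-coding start), 54 (24.9%) an exon, 24 (11.1%) an intron and 51 (23.5%) none of these. Over all 100163 eligible tiles the shares were 24.4%, 18.9%, 20.6% and 36.1%, but most of those tiles were too methylated in Dnmt1+/+ to gain. Over the 27619 tiles below 60% in Dnmt1+/+, the range that held all the gaining tiles, they were 72.0%, 6.12%, 5.72% and 16.1%. Set beside low tiles, the gaining tiles were thus less often on promoters and more often in exons and introns. Between 20 and 40% in Dnmt1+/+, 40.8% of the 125 gaining tiles were on a promoter, against 59.5% of all 7848 tiles.

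The same held for the distance to a start. Of the gaining tiles 35.0% were centred within 1 kb of a start and 29.95% at 1 to 5 kb, against 66.2% and 13.8% of the tiles below 60% and 21.4% and 13.4% of all eligible tiles. The median distance was 2.60 kb for gaining tiles, 0.563 kb for tiles below 60% and 13.3 kb for all. Besides protein-coding genes, 28 of the gaining tiles overlapped an annotated non-coding gene. Promoter tiles differed by a median of 21.6 points, exonic ones by 24.9, intronic ones by 25.8 and intergenic ones by 19.96. These comparators were chosen after the values were seen, and no test was made of the shares.

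Where a gaining tile lay outside the promoter, the start of its gene was usually low in both libraries. Of 69 such starts with 5 or more other CpGs within 500 bp, the median was 3.02% in Dnmt1+/+ and 1.501% in Dnmt1-/-, and 44 were under 10% in both. The same share was not made for the starts of all genes, so nothing particular to these genes is read from it. At 4 starts the level was higher by 15 points or more, and at 8 it was lower by 15 or more. The largest of the 4 was a Hoxc4 start, at 7.11% and 69.5%, which lies inside the dropped HoxC interval although its tiles lie outside. At Mn1, 86 CpGs around the start averaged 1.61% and 0.740%, while the tiles 2.0 and 3.0 kb into the gene were over 60% in Dnmt1-/-. Twist1 (1.78% and 0.906%), Tbx2 (2.17% and 1.53%) and Foxf2 (2.79% and 0.996%) also had low starts, with the highest of their gaining tiles at 85.7%, 54.7% and 75.01% in Dnmt1-/-. At Esr1 the start was lower, at 19.8% and 0.649%, although its tiles 1.9 and 2.9 kb into the gene were higher. The start of Pitx1, a homeobox gene of the hindlimb that also had promoter tiles among the 217, was next, at 7.16% and 30.1%.

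In sequence the gaining tiles were close to low tiles in general. The median GC content was 56.5%, against 56.1% for tiles below 60% in Dnmt1+/+ and 49.7% for all eligible tiles. The median number of CG per kb was 46, against 46 and 21, and the ratio of observed to expected CpG was 0.583, against 0.614 and 0.352. In the gaining Hox tiles these measures were 53.2%, 34 and 0.501. The median tile of the 217 had 46.8 calls per CpG (Dnmt1+/+) and 43.8 (Dnmt1-/-), against 49.7 and 49.3 for tiles below 60% and 32.6 and 33.9 for all. The part of depth and of base composition in the result was not tested.

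Moving away from the tiles, the higher level in Dnmt1-/- gave way to a lower one. By other CpGs, mean methylation in the centre was 19.4% in Dnmt1+/+ and 46.4% in Dnmt1-/-, and the order had turned 1.5 kb from the centre, on one side at 41.4% and 34.0% and on the other at 44.1% and 38.7%. These means rest on 169 tiles at the centre and on 59 and 63 tiles at 1.5 kb, so the tiles compared differ. Around tiles that were below 20% in Dnmt1+/+ by other CpGs and did not gain, the centre was at 5.31% and 2.16%. No distance out to 1.5 kb from those had a higher level in Dnmt1-/-. The centre values of both sets follow from how the sets were chosen, and their starting levels were not matched. Of the 217 tiles, 78 had another gaining tile directly beside them. The 117 eligible neighbours that missed the threshold were below it by definition, and 52 of them were higher in Dnmt1-/- and 20 were lower by 15 points or more.

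**Figure D5:**
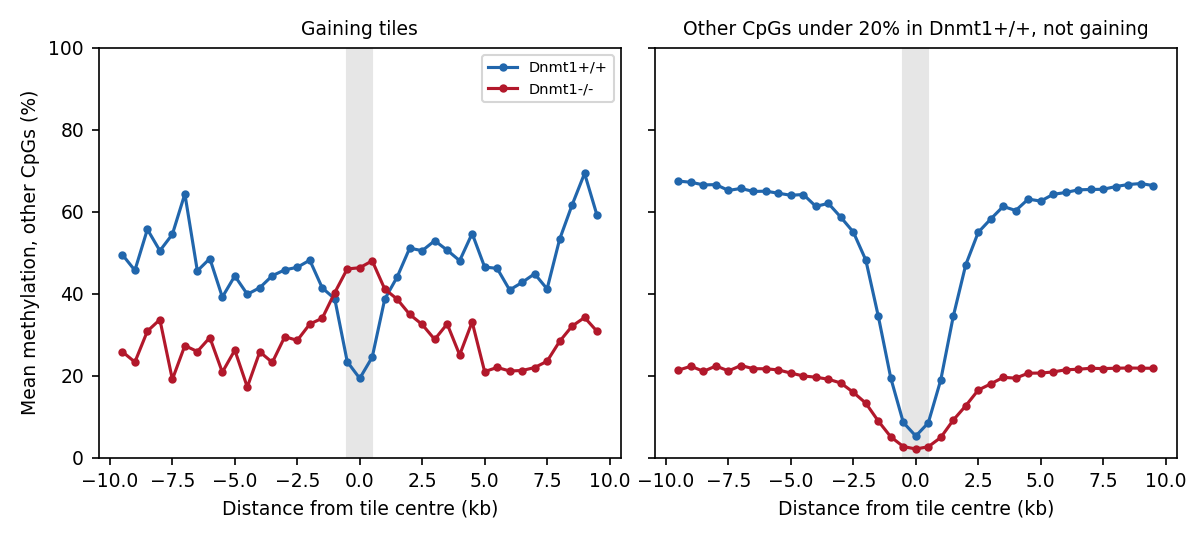
Mean methylation of CpGs outside CCGG and TCGA (y axis, percent) in Dnmt1+/+ (blue) and Dnmt1-/- (red) against distance from the tile centre (x axis, kb; the grey band is the tile), for gaining tiles and for tiles under 20% in Dnmt1+/+ by these CpGs that did not gain. In gaining tiles the red line is above the blue only around the centre (46.4% against 19.4%), and in the others it is below throughout. The centre values follow from how the sets were chosen, and fewer tiles have CpGs at each distance away from the centre.

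Tiles with 1 to 4 CpGs were too sparse for the rule, so their CpGs had no part in the choice. Those directly beside a gaining tile (69 tiles, 182 CpGs) averaged 69.7% in Dnmt1+/+ against 55.5% in Dnmt1-/-, which is −14.2 points. Beside any eligible tile the same kind of CpG averaged 82.8% and 46.2%, a difference of −36.6 points. Beside low eligible tiles (under 20% in Dnmt1+/+ by other CpGs) it averaged 63.0% and 38.5%, a difference of −24.5 points. By other CpGs alone the differences were −12.9 points beside gaining tiles (62 CpGs), −31.6 beside low tiles (5969) and −52.5 beside any eligible tile. The starting levels were not matched: by other CpGs they were 54.2% beside gaining tiles and 41.2% beside low tiles. Of the 182 CpGs, 10 (5.49%) were called higher and 23.1% lower. The shares were 0.506% and 36.7% beside low eligible tiles and 0.135% and 56.4% beside any eligible tile. The sparse CpGs beside gaining tiles were thus also lower in Dnmt1-/-, but by fewer points than those of the other sets. CpGs close together share reads and fragments, and no test was made of this difference.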

How the data were processed

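Extended reduced-representation bisulfite sequencing of 1 Dnmt1+/+ and 1 Dnmt1-/- MEF library was made by a sequencing provider. The submitters' processing notes name Bismark and mm9, with versions not given in the sources used here. The authors deposited 1 table with, for each CpG, the depth as a count of methylation calls and the percent methylated, after leaving out CpGs with fewer than 10 calls in either library. Percent times depth gave whole methylated calls (largest deviation 1.09139e-11), and all 1790826 positions fell on a CG of NCBIM37.

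CpGs were placed in 1 kb tiles, each CpG counting once. The dropped Hox intervals were 52.1 to 52.22 Mb of chromosome 6, 96.05 to 96.24 Mb of chromosome 11, 102.74 to 102.87 Mb of chromosome 15 and 74.5 to 74.61 Mb of chromosome 2. Members and gene lists were chosen with earlier results of these data known. Named tiles were, among those with 20 or more CpGs, the 10 with the largest rise, then the 8 loci with the most tiles, up to 4 genes per list, and the 3 tiles nearest the threshold on each side. The results for some named items are not reported here. Annotation was GENCODE vM1, with 1-based coordinates. For single CpGs, Fisher's exact test (two-sided, adjusted by Benjamini-Hochberg over all CpGs, checked on simulated data) set the methylated calls of the libraries against each other, not the genotypes. A CpG with 0 methylated calls at the median depth allows up to 10.3% in Dnmt1+/+ and 10.0% in Dnmt1-/- (3 calls). Wilson intervals and these limits cover counting error only, since without molecular identifiers PCR copies cannot be counted as separate molecules. Alternatives changed depth, CpG context, pooling, tile grid, CpG minimum and threshold. Sequence was read with pysam 0.24.0, tests ran with numba 0.67.0 and scipy 1.17.1, tables were handled in pandas 2.3.3 on python 3.11.15, and numpy 2.4.6 and matplotlib 3.10.9 did the rest. The other data types of the study were not analysed here.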

Additional observations from a re-analysis of the deposited data

Results flagged for a closer look

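The X and Y chromosomes were outside the comparison, and 5 of their 2245 tiles with 5 or more CpGs were also higher in Dnmt1-/- by 15 points or more (0.223%). They are given because they lay in data that the comparison did not use. The share was near the 0.217% of the autosomes outside the Hox intervals. All 5 were on X. The tile at the start of Pak3, which encodes a p21-activated kinase, went from 13.4% to 44.9% over 9 CpGs, and that of Mcts1 from 14.8% to 41.4% over 11. The tiles at Tbc1d8b and Esx1, a homeobox gene, were 16.4 and 16.0 points higher, with 8 and 5 CpGs. The fifth, in an intron of Nhs and with 27 CpGs, went from 24.3% to 42.1%. No test was made, since each genotype had 1 library.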

How the results depend on the processing

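The number of gaining tiles was 217 and stayed between 169 and 255 under all alternatives but a changed threshold, which gave 85 tiles in 71 loci at 25 points and 352 tiles in 263 loci at 10 points. The share on a promoter stayed between 35.0% and 43.8%. The medians in Dnmt1+/+ and Dnmt1-/- were judged against the counting error of all calls pooled over the 217 tiles. This is not the error of a median over tiles, and the alternatives changed which tiles were members. Beyond that limit the medians moved to 26.5% and 53.7% with at least 20 calls per CpG. Without CpGs in CCGG or TCGA they were 15.7% and 44.1%, and with pooled calls 26.5% and 52.0%. With at least 10 CpGs they were 25.3% and 51.1%, at 25 points 23.7% and 56.5%, and at 10 points 26.1% and 47.6%. With tiles shifted by 500 bp the Dnmt1+/+ median was 26.3%, and without tiles within 100 kb of a Hox interval, an alternative chosen after seeing the data, the Dnmt1-/- median was 52.0%. Members turned over: 191 of the 255 tiles found without CpGs in CCGG or TCGA, and 181 of the 198 found at the higher depth, were among the 217. Thinned to 10 calls per CpG, 293 of the 4761 CpGs were called higher instead of 2444, so depth limits how many single CpGs can be called. The sparse neighbouring CpGs differed by −12.9 points without CCGG and TCGA, also chosen after seeing the data, and those beside low and beside any eligible tiles by −31.6 and −52.5. No paired analysis was possible because there was only 1 library per genotype.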
